A study of Mus musculus with 6 samples.

Results

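The genes described here are the matrix metalloproteinases (MMPs), their tissue inhibitors (TIMPs), the ADAM and ADAMTS metalloproteinases and the ADAMTS-like proteins. The families were chosen with earlier results of these data known, but their members were taken from the count table by symbol alone. Every row named Mmp, Adam, Adamts or Adamtsl followed by a digit, or Timp1 to Timp4, was a member. This gave 59 of the 18197 symbols in the table: 16 MMPs, 4 TIMPs, 17 ADAMs, 17 ADAMTS and 5 ADAMTS-like genes. The TIMPs and the ADAMTS-like proteins are no proteases, and several of the ADAMs lack the catalytic site.

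The libraries are RNA-seq of cancer-associated fibroblasts, the stromal cells that build and remodel tumour matrix, sorted by FACS from mammary tumours of C57BL/6 mice. All tumours were driven by the polyoma middle T oncogene and were harvested at 16 to 20 weeks. The 2 groups differ in the labelled genotype, with 3 libraries labelled WT and 3 carrying the label mPGES-1 KO, for loss of microsomal prostaglandin E synthase-1, which makes the lipid mediator PGE2. The comparison addresses which transcripts of these fibroblasts depend on PGE2, as the series title puts the aim. The promoter that drives the oncogene, the tissues in which the knockout acts and the antigens used for sorting are not stated in the labels. The labels name no animal for a library; p-values here therefore describe the spread among libraries, which may be technical.

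MMPs cut collagens, laminins and other matrix proteins and are made as inactive precursors, and TIMPs block the active enzymes by binding their catalytic zinc. ADAMs sit in the plasma membrane and release the outer parts of growth factors, cytokine receptors and adhesion molecules, a process called shedding. ADAMTS enzymes are secreted, and they process procollagens and cleave large proteoglycans such as versican and aggrecan. In breast tumours much of the MMP and TIMP message is known to come from the stroma rather than from the cancer cells.

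Total counts ran from 23013498 to 43648450 per library. Ptges, the gene of mPGES-1, stood at 31.9, 19.2 and 27.9 CPM (counts relative to the library total after TMM scaling) in WT replicates 1 to 3. In mPGES-1 KO replicates 1 to 3 it stood at 186, 137 and 129 CPM. The targeted gene was thus higher where the label says it was deleted, and a total per gene cannot show whether the targeted exons are missing, so every direction below follows the labels. The fibroblast markers were present in every library, with Dcn at a mean of 4320 and 5805 CPM and Col3a1 at 3222 and 1434 CPM (labelled WT and labelled KO). Marker sets of other cells differed between the groups. The summed level of 14 pericyte and vascular smooth muscle markers lay between 3212 and 8042 CPM for the WT label and between 199 and 370.0 CPM for the KO label, and 9 of the 14 fell. The summed level of 15 luminal epithelial markers was 7145 to 13239 CPM (WT label) and 36516 to 52170.2 CPM (KO label), and 7 of the 15 rose. For the KO label this sum was above that of 11 fibroblast markers (6327 to 17691 CPM) in every library. In WT replicates 1 to 3 the luminal sums were 13239, 7145 and 10283 CPM, and the fibroblast sums 12199.6, 9307 and 27295 CPM. Csn3 alone supplied a large part of the luminal sum and was not called (adjusted p = 0.0667 in edgeR). It was at 8490, 3494 and 5070 CPM in WT replicates 1 to 3. In mPGES-1 KO replicates 1 to 3 it was at 32217, 16656 and 18793 CPM. Of 10 endothelial markers 1, Esam, fell, and their sum was 162 to 479 against 19.8 to 112 CPM. Esam made up most of that sum in the libraries labelled WT. It was at 235, 379 and 120 CPM there and at 7.02, 5.11 and 2.29 CPM in those labelled KO. The 10 log2 fold changes were 5 positive and 5 negative, with a median of -0.03. Cdh5 and Tie1 were at 0 in at least 1 library. Of 10 macrophage markers and of 8 tested lymphocyte markers, 0 were called in either direction. Their log2 fold changes were mostly positive, 9 of 10 for the macrophage list (median 0.99) and 7 of 8 for the lymphocyte list (median 1.68). The sums of both lists overlapped between the groups. The pericyte and luminal markers move with the groups. The part of any of these cell types in the results below was not tested. Fewer cells of a type and less RNA per cell cannot be told apart in bulk samples.

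In the libraries labelled KO, 4 of the 55 members that could be tested fell and 0 rose: Mmp11, Mmp14, Timp1 and Adamts2. Over all 16543 tested genes 2.76% were called, with 1.56% that fell and 1.20% that rose, by the same edgeR quasi-likelihood test at an adjusted p under 0.05. Among the tested members, 45 had a negative and 10 a positive log2 fold change (mPGES-1 KO minus WT), and the median was -1.01, where all tested genes had a median of -0.04. In 16 of the 55 the 2 groups did not overlap, 15 of them lower and 1 higher in the libraries labelled KO. Over all tested genes, 27.9% were separated in this way, with 15.7% lower and 12.2% higher, so the members' share of 29.1% is near the background in all, while 27.3% were separated downward.

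The calls depended on single libraries. Leaving out WT replicates 1, 2 and 3 in turn left 5, 0 and 1 called members, and leaving out mPGES-1 KO replicates 1, 2 and 3 left 2, 0 and 0, with 8, 11 and 13 members at an unadjusted p under 0.05 in edgeR for the counts of 0. DESeq2 and limma-voom each called 11 members on all libraries, every one of them lower, beside 13.6% and 11.9% of all genes that these tests called (7.11% and 5.91% lower).

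**Figure D1:**
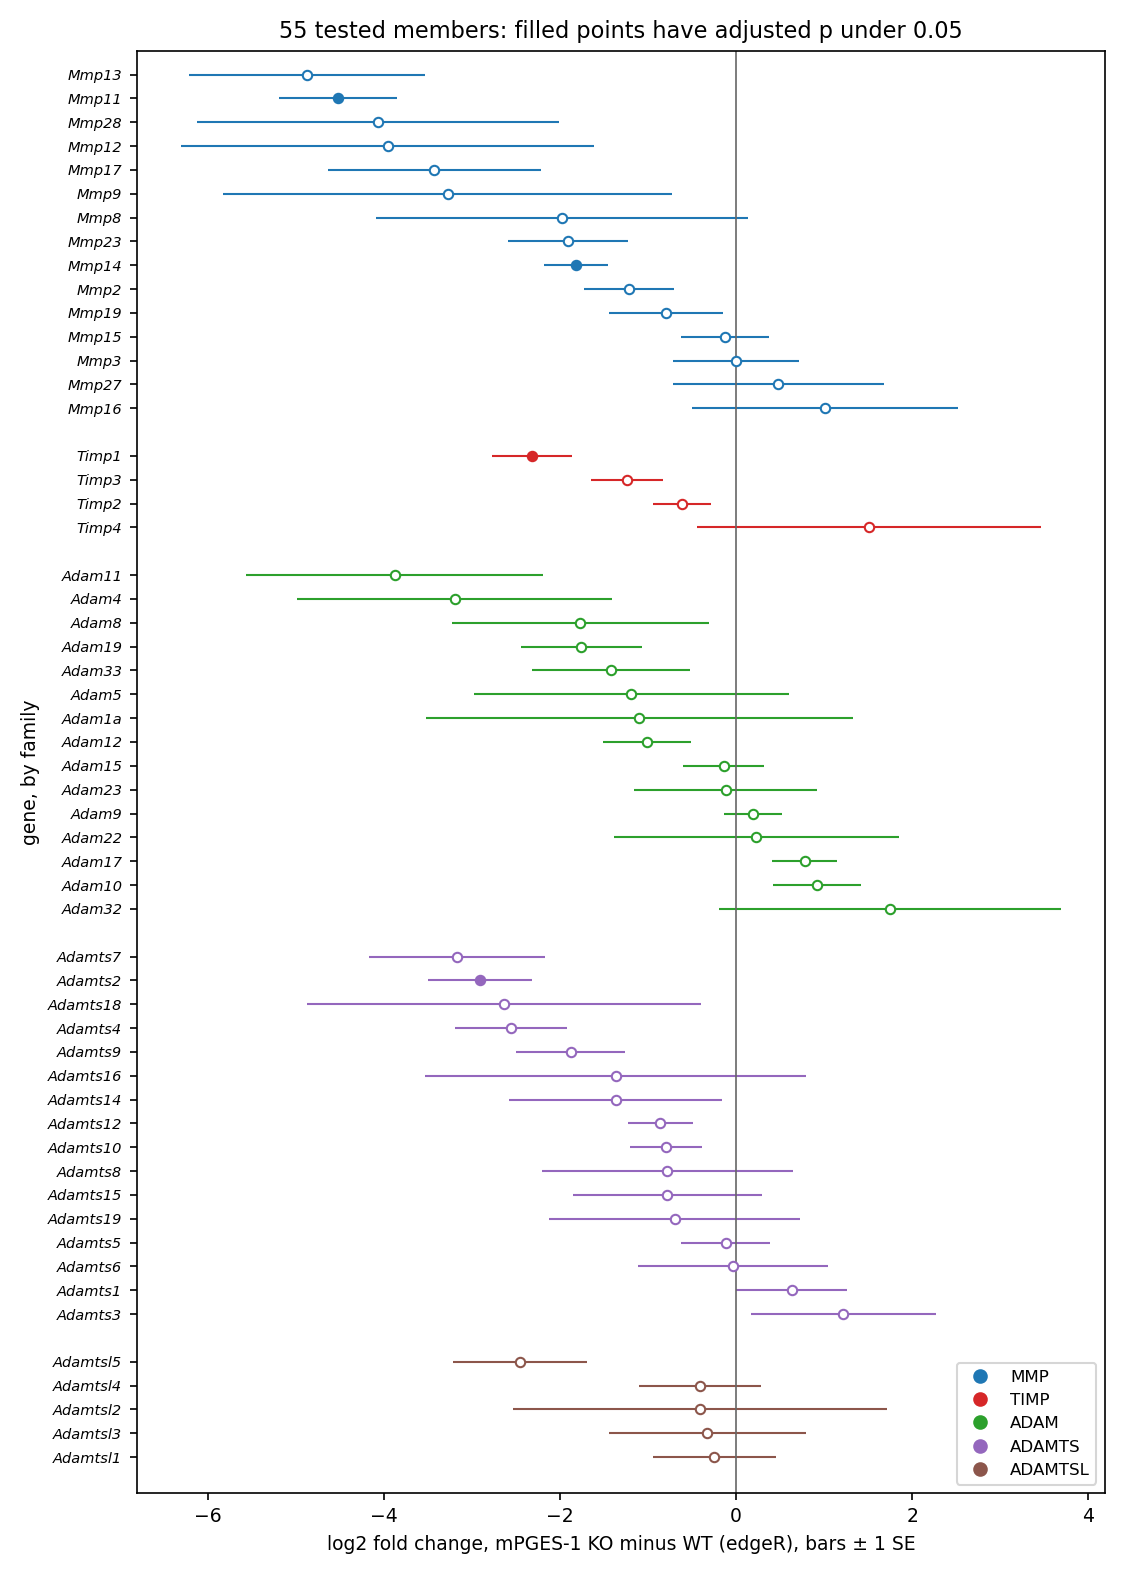
Each point is the log2 fold change (mPGES-1 KO minus WT, horizontal axis) of 1 of the 55 tested members with a bar of 1 SE on either side, grouped by family, and filled points have an adjusted p under 0.05. The 4 filled points, Mmp11, Mmp14, Timp1 and Adamts2, lie left of 0, and the widest bars belong to low or uneven genes such as Mmp9 and Mmp12.

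Mmp11, also called stromelysin-3, is an MMP of stromal cells that leaves the secretory pathway in active form. It stood at 459.7, 1043 and 222 CPM in WT replicates 1 to 3 and at 29.1, 33.2 and 12.9 CPM in the libraries labelled KO. Every library labelled WT was above every library labelled KO, and WT replicate 2 was the highest. The mean fell 22.9-fold, and the log2 fold change was -3.70 without WT replicate 2. The fitted log2 fold change was -4.52 ± 0.67 (SE; adjusted p = 0.0236 in edgeR), and the adjusted p was in a range from 2.03e-12 to 0.106 over 13 alternatives. Mmp11 shares 5.58% of its exonic bases with the opposite-strand gene Chchd10, and the reads carry no strand.

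Mmp14, the membrane-anchored collagenase MT1-MMP, activates the MMP2 precursor at the cell surface. It was measured at 514, 735 and 699.9 CPM in the libraries labelled WT and at 275, 131 and 145 CPM in those labelled KO. The libraries labelled WT lay close together, and mPGES-1 KO replicate 1 was the nearest to them. The log2 fold change was -1.82 ± 0.36 (SE; adjusted p = 0.0451), and the call was lost with DESeq2 size factors as the scaling (adjusted p = 0.0502).

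Adamts2 encodes the procollagen N-proteinase, which trims the amino-terminal propeptide of fibrillar procollagens. Its levels were 209, 539 and 281 CPM in the libraries labelled WT against 82.5, 21.7 and 33.0 CPM in those labelled KO. The groups did not overlap, and the means of 343 ± 173 and 45.7 ± 32.3 CPM (SD, n = 3 each) were 7.51-fold apart. The log2 fold change was -2.91 ± 0.59 (SE; adjusted p = 0.0484), and the call was lost with DESeq2 size factors (adjusted p = 0.0534) and with no filter on low counts (adjusted p = 0.0521). Without mPGES-1 KO replicate 1 the log2 fold change was -3.64.

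Timp1, an inhibitor of most secreted MMPs, also fell, so the called members held both proteases and an inhibitor. It stood at 291, 345 and 693 CPM in the libraries labelled WT and at 85.5, 55.8 and 124 CPM in those labelled KO. WT replicate 3 was the highest, and the groups did not overlap. The log2 fold change was -2.32 ± 0.45 (SE; adjusted p = 0.0423), and each of the 4 calls was lost in 4 or 5 of the 6 fits that leave out a library.

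**Figure D2:**
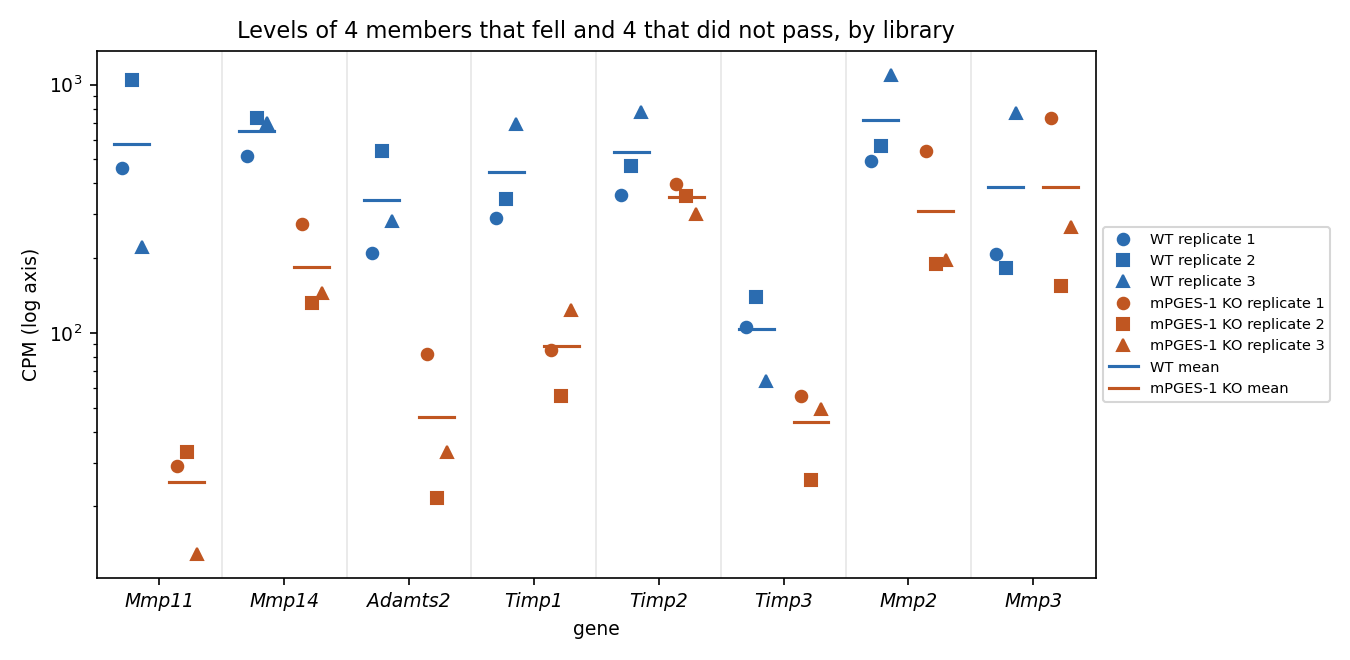
Points are CPM in each library on a log axis (blue, labelled WT; orange, labelled mPGES-1 KO; symbols, replicates 1 to 3) and lines are group means, for Mmp11, Mmp14, Adamts2 and Timp1, which fell, and Timp2, Timp3, Mmp2 and Mmp3, which did not pass. In the 4 genes on the left and in Timp3 the groups do not overlap, and the Mmp3 means coincide.

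The stretches before the transcript starts of the 4 genes that fell are shown because they share a feature the choice of members did not use. They are the 100 bases just before the start annotated by RefSeq on GRCm38.p6, written 5′ to 3′ on the gene's strand. Capitals mark the GC box GGGCGG, the core of the site bound by Sp1-type factors, on either strand. Adjoining GC boxes run together in Mmp14. Mmp11 lies at chr10:75932503-75932602 on the minus strand, upstream of a start inside the longer GENCODE gene. Mmp14 lies at chr14:54431498-54431597, Timp1 at chrX:20870066-20870165 and Adamts2 at chr11:50601985-50602084, all on the plus strand.
Mmp11: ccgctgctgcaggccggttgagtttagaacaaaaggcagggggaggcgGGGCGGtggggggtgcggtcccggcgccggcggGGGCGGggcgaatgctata
Mmp14: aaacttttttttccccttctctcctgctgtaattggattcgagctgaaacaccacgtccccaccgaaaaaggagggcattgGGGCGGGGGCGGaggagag
Timp1: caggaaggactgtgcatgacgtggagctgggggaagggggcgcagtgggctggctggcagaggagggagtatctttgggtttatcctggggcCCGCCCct
Adamts2: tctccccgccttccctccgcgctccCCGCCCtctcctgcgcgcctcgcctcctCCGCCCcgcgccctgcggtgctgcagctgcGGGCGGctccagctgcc
The longer windows, from 250 bases before to 50 after the start, were found for 35 of the 59 members, in 39 windows. A GC box was present in the windows of all 4 genes that fell, in 59% of the members' windows and in 35.7% of all 32851 windows. TGAGTCA, the AP-1 site, and TATAAA, the TATA box, each searched on both strands, were in 0 of those 4 windows. TGACGTCA, the cAMP response element, was in 0 of the members' 39 windows and in 1.79% of all windows. GC content differs between promoters, with a median of 63.3% over the members' windows and 52.7% over all windows. These matches describe letters in a window and show neither binding nor a cause.

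Among the other gelatinases, stromelysins and collagenases, 0 passed in edgeR, where Mmp2 and Mmp13 had an unadjusted p under 0.05. DESeq2 called Mmp13, and limma-voom called 0 of them. Mmp2, the gelatinase that MMP14 activates, was at 493, 567 and 1095 CPM in the libraries labelled WT and at 542, 189 and 196 CPM in those labelled KO. The groups overlapped, because mPGES-1 KO replicate 1 was above WT replicate 1, and the log2 fold change was -1.22 ± 0.51 (adjusted p = 0.251). Mmp3, stromelysin-1, had nearly equal means of 386 ± 331 and 386 ± 309 CPM (SD, n = 3 each). It was high in WT replicate 3 (768 CPM) and in mPGES-1 KO replicate 1 (736 CPM) and between 155 and 266 CPM in the other 4 libraries. Its log2 fold change of 0.00 ± 0.72 (adjusted p = 0.9995) ran from -0.87 to 0.98 over the alternatives. Mmp9, the other gelatinase, was at 12.1 CPM in WT replicate 2 and at 0.951 CPM or less in every other library.

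Of the remaining MMPs, Mmp23 was at 74.6, 89.2 and 295 CPM in the libraries labelled WT and at 75.1, 26.2 and 21.0 CPM in those labelled KO (adjusted p = 0.182), which overlapped in 1 library. Mmp17, a membrane-type MMP held by a lipid anchor, did not overlap between the groups, with 3.12 to 6.62 CPM against 0.126 to 0.821 CPM (log2 fold change -3.43 ± 1.21, adjusted p = 0.175). Mmp28, or epilysin, was also separated, at 1.56 to 5.11 CPM against 0.512 CPM in mPGES-1 KO replicate 1 and no count in the other two (adjusted p = 0.346). Mmp15, a relative of Mmp14 in the membrane-type group, was at 16.3 ± 6.05 and 14.9 ± 3.90 CPM, and Mmp19 at 20.3 ± 11.6 and 11.6 ± 7.94 CPM (SD, n = 3 each). The membrane-type group therefore held 1 gene that fell, Mmp14, and 3 that did not pass.

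Some members differed widely between libraries of the same group, such as Mmp9 (530-fold) and Adamts8 (424-fold) among the libraries labelled WT. A run of MMP genes on chromosome 9 held several more, though its Mmp3 ranged 4.21-fold there. It holds 6 members, from Mmp13 (7272514 to 7283331 in GENCODE M21 on GRCm38) through Mmp12, Mmp3, Mmp10 and Mmp8 to Mmp27 (7571396 to 7581885). Mmp13, the main fibrillar collagenase of the mouse, was at 594, 49.1 and 10.8 CPM in WT replicates 1 to 3 and at 7.5, 7.75 and 6.99 CPM in the libraries labelled KO. The groups did not overlap, but the lowest library labelled WT was near the level of the other group. The log2 fold change was -4.88 ± 1.34 (adjusted p = 0.102), and it ran from -5.44 to -2.01 over the alternatives, the latter without WT replicate 1. In DESeq2 the adjusted p was 0.00595, in a range from there to 0.312 over the alternatives.

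Mmp12, the elastase of macrophages, was at 354, 18.6 and 0.0275 CPM in the libraries labelled WT and at 0, 6.58 and 17.3 CPM in those labelled KO. The count of 15556 in WT replicate 1 stood against 1 count in WT replicate 3. Mmp8, the collagenase known from neutrophils, had 15, 0.0503 and 3.05 CPM in the libraries labelled WT and 0.0366, 0.0838 and 4.45 CPM in those labelled KO. Adam8, a protease of leukocytes that lies on chromosome 7, had 19.8, 3.60 and 0.439 CPM and then 0.549, 1.13 and 5.30 CPM. In all 4 of these genes WT replicate 1 was the highest library. The 10 macrophage markers summed to 1459, 500.5 and 385 CPM in WT replicates 1 to 3 and, for the KO label, to 1071, 492 and 2400 CPM. Among the libraries labelled WT these sums had the same order as Mmp12, Mmp13 and Adam8, but not as Mmp8. Among those labelled KO, replicate 3 was the highest for the markers and for Mmp12, Mmp8 and Adam8, but not for Mmp13. In mPGES-1 KO replicate 1 the marker sum was above that in replicate 2, while Mmp12 and Adam8 were lower. The marker sum was highest of all in mPGES-1 KO replicate 3, where Mmp12 was at 17.3 CPM against 354 CPM in WT replicate 1. The part of macrophage RNA in these levels was not tested. Of 8 listed neutrophil markers 3 were in the table, and they summed to 64.3 CPM at most.

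**Figure D3:**
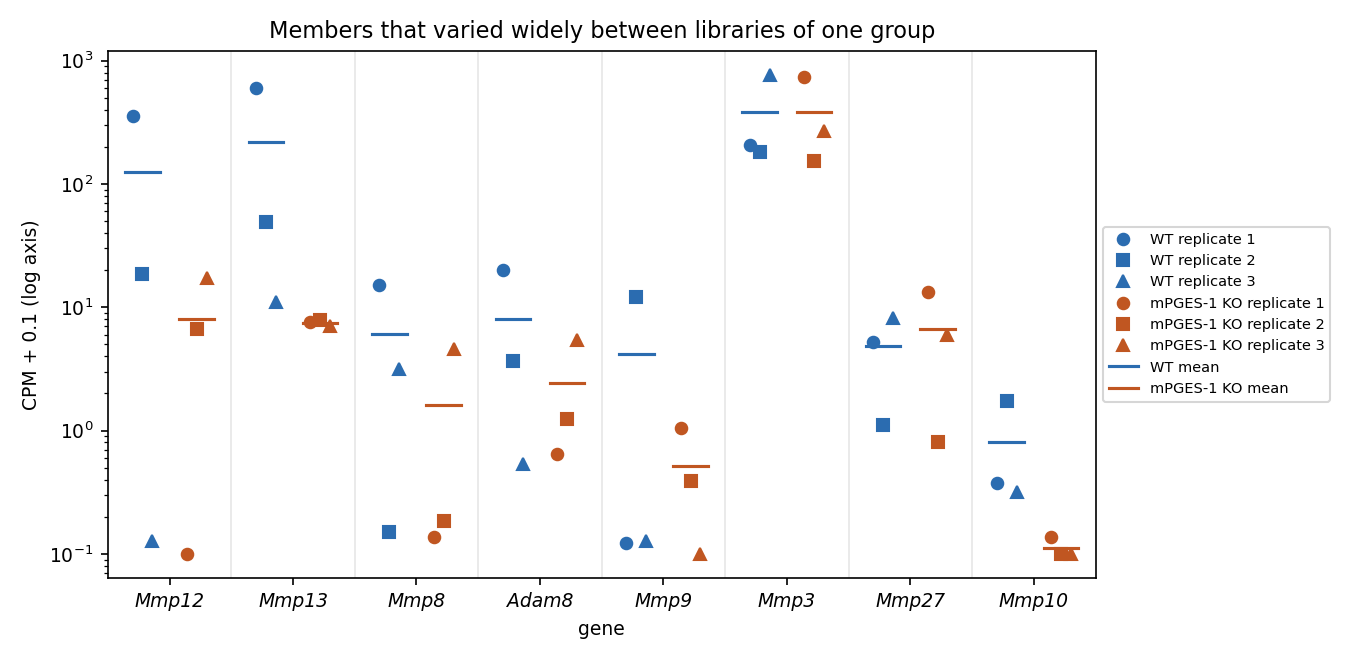
Points are CPM plus 0.1 in each library on a log axis (blue, labelled WT; orange, labelled mPGES-1 KO; symbols, replicates 1 to 3) and lines are group means. WT replicate 1 is the highest library for Mmp12, Mmp13, Mmp8 and Adam8, WT replicate 2 for Mmp9 and Mmp10, and WT replicate 3 for Mmp3.

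The start regions of these genes are shown because they hold a different motif from the stretches above. Capitals mark the AP-1 site TGAGTCA or its reverse complement TGACTCA, which is bound by dimers of Fos and Jun proteins. All 3 are 100 bases on the plus strand of GRCm38.p6, at chr9:7445722-7445821 for Mmp3, chr9:7347274-7347373 for Mmp12 (the downstream of its 2 annotated starts) and chr9:7272414-7272513 for Mmp13.
Mmp3: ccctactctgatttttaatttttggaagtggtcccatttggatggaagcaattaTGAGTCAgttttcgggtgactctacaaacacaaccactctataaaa
Mmp12: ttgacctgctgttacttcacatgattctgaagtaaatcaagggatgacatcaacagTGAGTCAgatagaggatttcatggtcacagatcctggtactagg
Mmp13: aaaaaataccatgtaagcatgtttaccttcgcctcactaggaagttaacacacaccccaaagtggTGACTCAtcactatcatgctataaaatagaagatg
The site began 46, 44 and 35 bases before the start in Mmp3, Mmp12 and Mmp13, and 63 bases before it in Mmp10. In all, 4 of the 6 genes of the run had an AP-1 site in a window and 5 had the letters TATAAA, and 0 had a GC box. TATAAA began 29, 16, 7 and 3 bases before the start in Mmp10, Mmp13, Mmp3 and Mmp8, and at base 5 after it in Mmp12. These letter matches do not show a working TATA box. The AP-1 site was present in 5.2% and the TATA box in 13.6% of all windows. Of the 4 genes of the run with this site, Mmp13 and Mmp12 were highest in WT replicate 1, Mmp10 in WT replicate 2 and Mmp3 in WT replicate 3. The part of AP-1 in these levels was not tested.

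**Figure D4:**
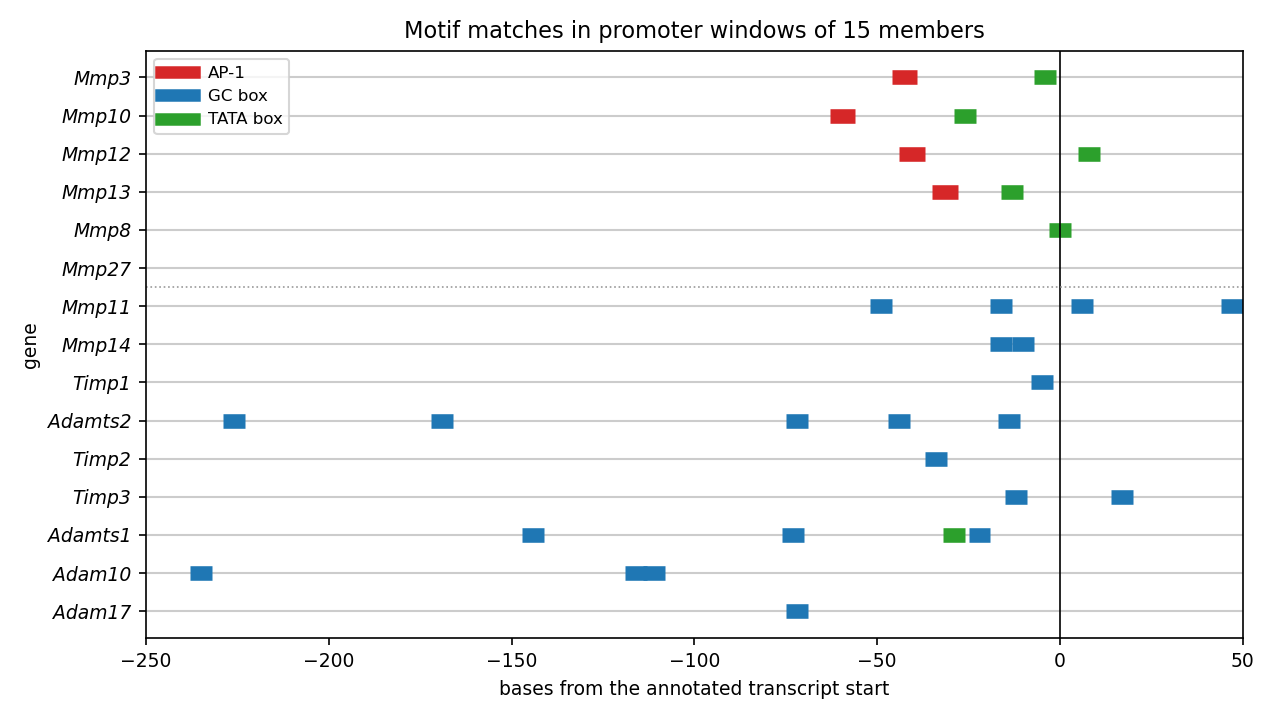
Blocks mark motif matches along the 300-base windows of 15 members (horizontal axis, bases from the annotated start; red, AP-1; blue, GC box; green, TATA box), with the chromosome 9 run above the dotted line. Red blocks appear in 4 rows above the line, and blue blocks appear in the rows below it alone. The rows below the line are a selection of the other members, each with a GC box, which 59% of the members' windows held. Adam19, not shown, had an AP-1 site and a GC box in the same window.

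Of the 4 TIMPs, Timp1 alone was called. Timp2, which blocks MMP14 and also takes part in the activation of MMP2 by it, was at 359.6, 470.4 and 775 CPM in the libraries labelled WT and at 396, 356 and 301 CPM in those labelled KO. The groups overlapped, and the log2 fold change was -0.61 ± 0.33 (adjusted p = 0.388). Timp3, the matrix-bound TIMP that also inhibits ADAM17, was at 106, 139.9 and 63.9 CPM against 55.8, 25.5 and 49.4 CPM (log2 fold change -1.24 ± 0.41, adjusted p = 0.151). The Timp3 groups were separated by less than 10 CPM, and 21.3% of its exonic bases are shared with the opposite-strand gene Syn3, so its value is uncertain. Timp4 was low throughout, from 0 to 6.80 CPM.

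Per kilobase of exon, which allows levels of different genes to be set side by side, Timp1 was the most abundant member in the libraries labelled WT. Its mean there was 499 CPM per kb, followed by Mmp3 (214), Mmp2 (213), Mmp11 (207) and Timp2 (137 CPM per kb). The SDs of Mmp3, Mmp2 and Mmp11 between libraries were wider than the gaps between them, so their order is not resolved. In the libraries labelled KO, Mmp3 led with 214 CPM per kb, followed by Timp1 (99.6), Mmp2 (91.7) and Timp2 (90.1), and Mmp11 was 11th with 9.02 CPM per kb. That order is not resolved either: Mmp3 was at 409 CPM per kb in mPGES-1 KO replicate 1, but Timp2 led in replicate 2 (91.4 against 85.9 for Mmp3), and Mmp3 and Timp1 were close in replicate 3 (147.7 and 139.6 CPM per kb). Summed over each family per kb, MMPs were 1.92, 1.6 and 1.11 times the TIMPs in WT replicates 1 to 3, and 3.3, 1.25 and 1.16 times in mPGES-1 KO replicates 1 to 3. The 2 sets of ratios overlap, since both sums were lower in the libraries labelled KO.

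None of the 15 tested ADAMs passed the edgeR test, with 1 of them at an unadjusted p under 0.05 and 19.1% of all tested genes under it, while DESeq2 called 0 and limma-voom called Adam19. The 9 somatic ADAMs known to cut proteins summed to 293 ± 22.0 CPM (labelled WT) and to 293 ± 34.7 CPM (labelled KO) (SD, n = 3 each). Adam10, the main sheddase of Notch and cadherins, was at 67.9, 41.2 and 21.7 CPM and then at 56.1, 129 and 62.6 CPM (log2 fold change 0.92 ± 0.50, adjusted p = 0.382). Adam17, which releases TNF and the ligands of the EGF receptor, was at 28.9, 38.8 and 26.3 CPM and then at 68.6, 32.9 and 60.2 CPM (log2 fold change 0.78 ± 0.37, adjusted p = 0.311). In both genes the groups overlapped. Adam9 was the most abundant ADAM per kb of exon, and its levels of 74.5 ± 21.4 and 85.2 ± 24.7 CPM (SD, n = 3 each) differed by less than the spread between libraries.

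Adam12, Adam15, Adam19 and Adam33 are membrane ADAMs often studied in mesenchymal cells. Adam19 was at 19.9, 37.9 and 43.2 CPM in the libraries labelled WT and at 19.8, 6.45 and 3.51 CPM in those labelled KO (log2 fold change -1.76 ± 0.69, adjusted p = 0.218). The separation of its groups rests on the third significant digit. Adam12 was at 27.1 ± 13.7 and 13.4 ± 3.32 CPM, Adam15 at 32.5 ± 4.45 and 29.5 ± 17.7 CPM, and Adam33 at 42.4 ± 46.0 and 15.8 ± 11.7 CPM (SD, n = 3 each), all with overlapping groups. The other 8 ADAMs, which lack proteolytic activity or are known mainly from the germ line and the nervous system, reached 63.8 CPM together at most. Adam4, one of the reproductive ADAMs, was separated at 1.61 to 2.91 CPM against 0 to 0.712 CPM, and Adam23, which lacks the catalytic site, took most of that sum in WT replicate 3 with 47.1 CPM.

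Among the ADAMTS enzymes, Adamts2 was the 1 called gene of 16 tested, and 14 of the 16 had a negative log2 fold change. The other procollagen-trimming members were low. Adamts3 was at 3.46, 0.579 and 2.77 CPM in the libraries labelled WT and at 3.55, 8.09 and 4.22 CPM in those labelled KO, which made it the 1 member that was higher with separated groups (adjusted p = 0.603). Adamts14 was at 6.90 ± 8.68 and 2.67 ± 1.95 CPM (SD, n = 3 each).

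The proteoglycan-cleaving ADAMTS did not move as 1 block. Adamts4, an aggrecanase, was at 90.8, 269 and 452 CPM in the libraries labelled WT and at 72.6, 42.5 and 22.97 CPM in those labelled KO (log2 fold change -2.56 ± 0.64, adjusted p = 0.0834). Its groups did not overlap, and it passed without WT replicate 1 (adjusted p = 0.0393) and in DESeq2 and limma-voom, over a range from 7.50e-04 to 0.261. Adamts5, the other major aggrecanase, was at 60.7 ± 28.5 and 55.8 ± 33.9 CPM (adjusted p = 0.932). Adamts1, which cleaves versican, was at 84.6, 140.0 and 192 CPM and then at 449, 92.2 and 105 CPM. Its positive log2 fold change of 0.63 ± 0.63 turned to -0.48 without mPGES-1 KO replicate 1, the library with the highest value. Adamts9 was separated, at 21.2, 22.2 and 25.04 CPM against 11.3, 4.61 and 2.78 CPM (adjusted p = 0.152). Adamts9 shares 12% of its exonic bases with opposite-strand genes.

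Of the remaining tested ADAMTS and ADAMTS-like genes, 3 were separated downward. Adamts7, which cleaves cartilage oligomeric matrix protein, was at 8.27, 23.8 and 18.1 CPM in the libraries labelled WT and at 4.21, 0.922 and 0.453 CPM in those labelled KO (log2 fold change -3.17 ± 1.00, adjusted p = 0.136). Adamts12 was at 91.5, 66.2 and 92.3 CPM against 63.6, 26.7 and 47.1 CPM (adjusted p = 0.257). Adamtsl5, a secreted protein without a protease domain, was at 27.9, 64.6 and 65.7 CPM against 20.5, 5.28 and 3.00 CPM (log2 fold change -2.46 ± 0.76, adjusted p = 0.129). Adamts10, which acts on fibrillin microfibrils, overlapped at 50.6 ± 13.4 and 29.0 ± 12.3 CPM. In each of these 3 separated genes mPGES-1 KO replicate 1 was the highest library of its group.

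Across the members, 1 library stood high within each group. Among the libraries labelled KO, replicate 1 held the highest value of 33 of the 55 tested members, or 60%, while it was the highest for 35.5% of all tested genes. Among the libraries labelled WT, replicate 3 was the highest for 30 members, or 54.5%, and for 34.1% of all tested genes. The same libraries had the highest summed level of 11 fibroblast markers in their group, at 17691 CPM in mPGES-1 KO replicate 1 (6327 and 9431 CPM in replicates 2 and 3) and at 27295 CPM in WT replicate 3 (12199.6 and 9307 CPM in replicates 1 and 2). The fibroblast list holds Thy1, which fell, and 10 genes that were not called.

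The members were therefore also set against the fibroblast marker sum of their own library, a ratio chosen after the values were seen. Per 1000 CPM of fibroblast markers, Mmp14 was at 42.1, 79.0 and 25.6 CPM in WT replicates 1 to 3 and at 15.6, 20.8 and 15.3 CPM in the libraries labelled KO. Timp1 was at 23.9, 37.0 and 25.4 CPM and then at 4.83, 8.82 and 13.2 CPM on that scale. Mmp11 was at 37.7, 112 and 8.13 against 1.64, 5.25 and 1.37, and Adamts2 at 17.2, 57.9 and 10.3 against 4.66, 3.42 and 3.50, in the same unit. All 4 were apart between the groups on this scale. They had been picked as called in these same libraries, so this is no independent test. The marker list itself holds 3 genes with a positive and 8 with a negative log2 fold change. The part of fibroblast content in the fall of the 4 genes was not tested. Mmp3 was at 16.97, 19.6 and 28.1 and then at 41.6, 24.4 and 28.2, with overlapping groups. The calls of overlap changed for others: Mmp2 was apart, at 40.4, 60.9 and 40.1 against 30.6, 29.9 and 20.8, while the TIMP sum overlapped, at 62.0, 102.7 and 56.2 against 30.4, 69.2 and 51.1. No such ratio was taken to the pericyte markers, whose sums were themselves far apart.

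The family sums show the same split in other terms. All 59 members together took 0.454%, 0.56% and 0.631% of the counts in WT replicates 1 to 3 and 0.348%, 0.171% and 0.172% in mPGES-1 KO replicates 1 to 3. The MMPs summed to 2886 ± 246.5 CPM and 999.7 ± 624 CPM, and the TIMPs to 1082 ± 404 CPM and 486 ± 50.2 CPM (labelled WT and labelled KO, SD, n = 3 each). The ADAMTS sums of 1034 ± 357 and 475 ± 329 CPM overlapped, and the ADAM sums of 328 ± 47.0 and 319 ± 40.4 CPM differed by less than the spread between libraries.

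Other genes of the pathway were read from lists of activators, partners and substrates. The counts of each list stand beside 1.56% of all tested genes that fell and 1.20% that rose in edgeR. Of 18 tested activators and regulators of MMPs, 1 rose and 2 fell, and the median log2 fold change was -0.47. Plaur, the receptor that holds the plasminogen activator urokinase at the cell surface, rose from 15.2, 24.8 and 49.9 CPM to 257, 320.2 and 102 CPM (log2 fold change 2.92 ± 0.58, adjusted p = 0.0453). Serpine2, a secreted serine protease inhibitor, fell from 8939, 5537 and 1362 CPM to 312, 337 and 255 CPM (log2 fold change -4.13 ± 0.67, adjusted p = 0.0281). Bsg, the surface protein basigin known as an inducer of MMPs, was at 1057 ± 245 and 1612 ± 521 CPM (adjusted p = 0.383).

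Of 11 tested partners of ADAM10 and ADAM17, 2 fell and 0 rose, and the log2 fold changes were 5 positive and 6 negative. Frmd8, which keeps the ADAM17 carrier complex of iRhom proteins stable, fell from 91.3, 119.6 and 76.0 CPM to 19.8, 32.7 and 20.1 CPM (log2 fold change -1.98 ± 0.34, adjusted p = 0.0311). Tspan17, a tetraspanin that binds ADAM10, fell from 108, 139 and 71.0 CPM to 28.8, 23.6 and 36.2 CPM (log2 fold change -1.84 ± 0.34, adjusted p = 0.0383). Rhbdf1, which encodes an iRhom, was at 239.5 ± 109.6 and 104 ± 37.6 CPM (adjusted p = 0.158), and Itgb1 at 578 ± 217 and 371 ± 92.7 CPM.

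Of 35 tested genes for proteins that ADAMs shed, 4 rose and 1 fell, and the median log2 fold change was 1.24, beside -0.04 over all tested genes. Tnf, the cytokine released by ADAM17, rose from 53.0, 29.6 and 21.9 CPM to 701, 276 and 215 CPM (log2 fold change 3.51 ± 0.57, adjusted p = 0.0281). Sdc4, a heparan sulphate proteoglycan of the cell surface, rose from 89.5, 66.7 and 88.9 CPM to 469, 553 and 564 CPM (log2 fold change 2.69 ± 0.26, adjusted p = 0.0143). Hbegf, an EGF receptor ligand, and Cdh1, the epithelial cadherin, rose by log2 fold changes of 3.82 ± 0.48 and 2.26 ± 0.33, while their sheddases Adam17 and Adam10 did not pass. Jag1, a Notch ligand, fell from 34.9, 53.4 and 43.5 CPM to 12.4, 7.54 and 10.6 CPM (log2 fold change -2.11 ± 0.38, adjusted p = 0.0349). Cdh1 is also on the luminal list, whose summed level was higher in the same libraries.

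Of 28 tested matrix substrates, 3 fell and 0 rose, with a median log2 fold change of -1.18 beside -0.04 over all tested genes. They were Col4a1 and Col4a2, the chains of basement membrane collagen, with log2 fold changes of -3.15 ± 0.51 and -3.26 ± 0.53, and Sparc, a collagen-binding protein, with -2.18 ± 0.43. Dcn, a small proteoglycan of collagen fibrils, did not pass (log2 fold change 0.43 ± 0.64). Of 21 tested proteases outside the member families, Dpp4 alone was called. This cell-surface peptidase removes dipeptides from the amino terminus of peptides. It rose from 11.04, 3.47 and 13.2 CPM to 129.9, 66.1 and 40.9 CPM (log2 fold change 3.09 ± 0.64, adjusted p = 0.04997). Bmp1 was lower with separated groups, at 175, 375 and 243 CPM and then at 81.6, 46.8 and 25.2 CPM. It just missed the threshold (log2 fold change -2.37 ± 0.49, adjusted p = 0.05035). Of the 21, 12 had a negative log2 fold change, and the median was -0.53. The cathepsins Ctsb and Ctsl, lysosomal cysteine proteases, were at 1605 ± 503 and 2285 ± 310.1 CPM and at 774 ± 263 and 1181 ± 312 CPM, and Ctsz at 614 ± 88.2 and 425 ± 50.03 CPM (SD, n = 3 each), with none passing the edgeR test.

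The 4 members that were too low to test were Adam28, Adam30, Mmp10 and Adamts17, each at 3.95 CPM or less in every library. Mmp10, or stromelysin-2, had 12, 65 and 8 counts in the libraries labelled WT and 1, 0 and 0 in those labelled KO. Adamts17 had 5, 157 and 98 counts and then 1, 1 and 0. For a gene at 0, the floor of 3 counts equals 0.0683 to 0.126 CPM, and such limits cover counting error only, since reads were amplified by PCR and carry no molecular identifiers. The 8 members that share at least 10% of their exonic bases with another annotated gene were Adam1a, Adam15, Adam19, Adamts8, Adamts9, Mmp19, Mmp28 and Timp3. Their values are uncertain, since the reads do not record strand. Adam1a, which shares 63.7%, also overlaps genes on its own strand, where a record of strand would not help.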

How the data were processed

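The authors deposited a table of raw counts by gene symbol, without normalization, for 6 libraries. Per the submitters' processing notes, FastQC 0.11.5, STAR and the build mm10 were used; no source used here gives the counting program, annotation or filters. Per the labels' protocols, cDNA from the sorted cells was amplified by 16 PCR cycles with a template-switching kit and read as single reads of 75 cycles, which keeps no strand.

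Genes were kept with filterByExpr, scaled with TMM; edgeR 4.0.16 (R 4.3.3) then fitted its robust quasi-likelihood model over all 6 libraries with no covariate. Tests were two-sided, and p-values were adjusted by Benjamini-Hochberg over all 16543 tested genes. The SE is the absolute log2 fold change over the square root of F. The common biological coefficient of variation was 0.818. DESeq2 1.42.0 and limma 3.58.1 (voom with quality weights) served as alternatives, beside other scalings and filters, a replicate block and each library left out. The code was tested on simulated data. Positions and exonic lengths come from GENCODE M21 (GRCm38, which mm10 names), promoter windows from RefSeq on GRCm38.p6.

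Named genes are the called members, those with separated groups, the 3 most abundant per kb of each role and a fixed set of well-known members. From each pathway list they are the called genes and the most abundant up to 4. Other genes (Adam33, Adam28, Adam30, Adam1a, Adamts8, Adamts17, Mmp27, Col3a1, Thy1, Esam, Csn3, Rhbdf2, Bmp1) were named outside this rule, with their values seen. The members and lists were chosen with earlier results of these data known. No pair of libraries held identical values. The values of 1 called gene of the pathway lists are not reported here.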

Additional observations from a re-analysis of the deposited data

How the results depend on the processing

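Over 13 alternatives the members' median log2 fold change ran from -1.35 to -0.57 and kept its sign. Of the 55 tested members, 4 were called in edgeR, 11 in DESeq2, 11 in limma-voom, 2 with DESeq2 size factors, and 0 to 5 with single libraries left out. Over all genes, 456 became 2093 in DESeq2, 1965 in limma-voom, 1113 at an adjusted p under 0.1, and 0 to 568 with single libraries left out. The 14 called genes of the pathway lists became 39, 37, 23 and 0 to 13 under the same settings. With the replicate number as a block, edgeR called 0 genes, members and pathway genes, with 2716, 11 and 45 at an unadjusted p under 0.05; the labels do not say that a number marks a shared animal or batch, and same-numbered libraries did not deviate together (correlations of -0.0634, 0.0278 and -0.0166). The cause of these changes was not tested.

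Among the genes named by the rule, 15 that were not called changed the sign of their log2 fold change. With single libraries left out, Mmp3 ran from -0.87 to 0.98, Mmp8 from -6.57 to 0.01, Mmp9 from -4.79 to 3.92, Mmp15 from -0.34 to 0.10, Timp4 from -0.67 to 2.85, Adam5 from -1.99 to 0.24, Adam8 from -3.24 to 0.19, Adam9 from -0.02 to 0.44, Adam15 from -0.75 to 0.14, Adam23 from -0.72 to 2.16, Adamts1 from -0.48 to 1.03, Adamts5 from -0.73 to 0.31, Adamts14 from -2.11 to 0.49, Adamtsl1 from -1.06 to 0.58 and Dcn from 0.00 to 0.82. In limma-voom, Adam23 was 0.59, Adamts1 -0.04 and Mmp15 0.25, and with the block Adam23 was 0.83. Mmp3 was 0.04 with at least 1 CPM in 3 libraries, 0.06 in DESeq2 and with its size factors, and 0.05 with no filter.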
